A study of Vitis vinifera with 3 samples.

Results

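VvmiR319e and VvmiR159c are 2 of the 161 known VvmiRNAs/VvmiRNAs* of grape berries whose mature sequences the study lists. Both were followed here through short reads: reads of 14 to 17 nt that match the start of a mature sequence base for base are called its 5′ fragments. The 161 entries hold 96 distinct sequences, which fall into 86 groups with their own first 14 nt. VvmiR319e and VvmiR159c each form a group of their own, so no fragment of either is shared with another listed entry. Berries were sampled 5 days after flowering (DAF) as young berries (YB), 45 DAF as stone-hardening berries (SB) and 90 DAF as mature berries (MB). The study names the ‘Wink’ cultivar as its material and states it outright for the SB library. The labels name no treatment and no tissue within the berry, so fewer cells that make a VvmiRNA and less of it per cell cannot be told apart. Each stage has 1 library, and no difference between stages has a replicate check. By the study’s text, only the SB library was made for it and the others came from separate work of the authors, so stage and the making of the libraries cannot be told apart. The deposited sequences were 3 to 17 nt long, with a total of 39791 in the YB library, 33228 in that of SB and 75960 in that of MB, and full-length VvmiRNAs were not analysed here. Whether fragment numbers follow those of the full-length VvmiRNAs was not tested. The labels name both small RNA and mRNA degradome sequencing for every library and do not say which of these gave the deposited reads, so that the fragments come from the VvmiRNAs themselves rests on their sequence alone.

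miR319 and miR159 are related miRNA families of land plants, and both are cut from the 3′ arm of a hairpin precursor. In Arabidopsis, miR159 guides the cleavage of mRNAs of GAMYB-like MYB factors, which act in the gibberellin response of anthers and seeds. miR319 guides the cleavage of mRNAs of TCP factors, which restrain cell proliferation in leaves and petals. The families are alike in sequence over most of their length, and in Arabidopsis some miR319 can also act on MYB mRNAs.

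The mature sequences are shown because the comparison rests on a single base of them. They are written in DNA letters from the 5′-end, with bases 2 to 8 in capitals:
VvmiR319e: tTTGGACTgaagggagctcct
VvmiR159c: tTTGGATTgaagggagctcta
VvmiR319b, c, f and g: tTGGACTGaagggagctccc
Positions are numbered from the 5′-end, where the first base is 1. On this count, VvmiR319e differs from VvmiR159c by T7C, T20C and A21T, with the base of VvmiR159c first. No other listed entry has the bases 2 to 8 of VvmiR319e or those of VvmiR159c. Only T7C lies within the part that reads below 18 nt cover. The longest fragments are therefore alike in all but position 7, which is in capitals here:
VvmiR319e, 17 nt: tttggaCtgaagggagc
VvmiR159c, 17 nt: tttggaTtgaagggagc
RefSeq names the genes MIR319E and MIR159C in the assembly ASM3070453v1, and all 6 listed VvmiR159 and VvmiR319 entries were found there by name. The reads carry no genome build, so no genome positions are given.

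The fragments of VvmiR159c were abundant in YB and SB and scarce in MB. YB had 1192 reads, SB had 684 and MB had 43. Only VvmiR166b–h had more fragments at YB and at SB, and VvmiR159c had rank 3 of the 23 groups found at MB. Per 100000 short reads, these were 2996 at YB, with a 95% Wilson interval of 2833 to 3168. SB had 2058 (1911 to 2217), and MB had 56.6 (42.0 to 76.2). The reads of VvmiR319e numbered 6 in YB, 12 in SB and 9 in MB. Levels of VvmiR319e were 15.1 per 100000 short reads at YB (6.91 to 32.9) and 36.1 at SB (20.7 to 63.1). The level at MB was 11.8 (6.23 to 22.5). The 3 intervals of VvmiR319e overlap, while those of VvmiR159c are apart. These intervals cover counting error only. A floor of 3 reads corresponds to 7.54 per 100000 at YB, 9.03 at SB and 3.95 at MB, so the level of VvmiR319e at YB lay near the limit of detection.

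**Figure D1:**
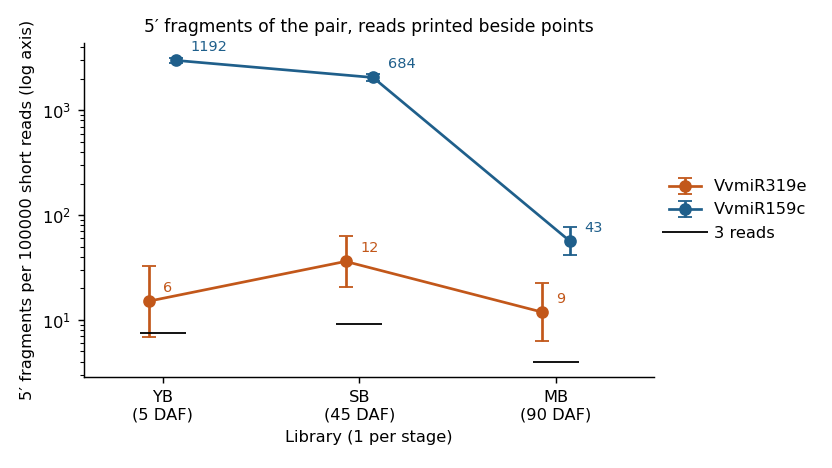
5′ fragments of VvmiR319e (orange) and VvmiR159c (blue) per 100000 short reads on a log axis, by library, with 95% Wilson intervals as bars, read numbers beside the points and short black lines at the level of 3 reads. VvmiR319e stayed between 6 and 12 reads, while VvmiR159c had 1192 at YB, 684 at SB and 43 at MB.

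Each listed group was compared between libraries by a two-sided Fisher’s exact test on its fragments and the other short reads, with Benjamini-Hochberg adjustment over all groups that had a read in either library. This test compares 2 libraries and not 2 stages. A group was called if its adjusted p was under 0.05 and its absolute log2 ratio at least 1. VvmiR159c fell to 43 reads at MB, against 684 at SB, with a log2 (MB/SB) of −5.18 (95% interval −5.69 to −4.77, adjusted p = 1.03e-291 by Fisher’s exact test). It was also lower at MB than at YB, with 43 reads against 1192 and a log2 (MB/YB) of −5.73 (−6.24 to −5.33). It was called lower in both comparisons, as were 19.4% of the 31 groups tested between MB and SB and 14.7% of the 34 tested between MB and YB. The median log2 over the groups with a ratio was −1.61 for MB/SB (13 groups) and −1.35 for MB/YB (15 groups). Both medians are set by groups with few reads, where a count under 3 was set to 3. For MB/SB it is the value of VvmiR2111 (1 read against 4), VvmiR3634 (0 against 4) and VvmiR319e itself. For MB/YB it is that of the groups of VvmiR164a (0 against 4), VvmiR479 (2 against 4) and VvmiR535a (3 against 4). Higher calls were made for 3.23% of the groups in MB/SB and for 2.94% in MB/YB, and these were VvmiR3623 in each case. The 2 most abundant sequence families, which match no listed VvmiRNA, held 17.05% of all short reads in YB, 16.6% in SB and 57.2% in MB. Without them in the total, the log2 (MB/SB) of VvmiR159c was −4.22. Over 11 alternatives the log2 of VvmiR159c was −5.67 to −2.14 for MB/SB and −6.22 to −1.47 for MB/YB, each with an adjusted p under 0.05, and the values nearest to 0 came with the fragments of all other listed groups as the total.

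Between SB and YB, VvmiR159c had 684 and 1192 reads and a log2 (SB/YB) of −0.54 (−0.69 to −0.42). This difference had an adjusted p of 1.82e-14 by Fisher’s exact test but was below the log2 threshold. With the fragments of all other listed groups as the total, it became 0.67 (adjusted p = 1.32e-12, Fisher’s exact test). The direction of VvmiR159c between SB and YB thus depends on the total. None of the 37 groups tested (0%) was called higher at SB, and 1 group (2.70%), VvmiR166b–h, was called lower. VvmiR319e was not called in any of these comparisons. Its log2 (SB/YB) was 1.26 with 12 reads against 6 (−0.27 to 2.96, adjusted p = 0.666, Fisher’s exact test). Its log2 (MB/SB) was −1.61 with 9 reads against 12 (−3.03 to −0.24, adjusted p = 0.0576, Fisher’s exact test). This interval leaves out 0 because the intervals are not adjusted for the number of groups, and the p before adjustment was 0.0149. Its log2 (MB/YB) was −0.35 with 9 reads against 6 (−2.00 to 1.42, adjusted p = 1). With the other listed fragments as the total, these became 2.47 for SB/YB (adjusted p = 0.00409, Fisher’s exact test), 1.44 for MB/SB (adjusted p = 0.0950) and 3.91 for MB/YB (adjusted p = 8.29e-06). The direction of VvmiR319e at MB thus depends on the total.

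The balance of the fragments of the 2 VvmiRNAs was then compared within each library, where no library total is needed. It is a balance of short reads and not of the full-length VvmiRNAs. VvmiR319e was 0.501% of the fragments of both at YB, or 6 of 1198 reads (95% Wilson interval 0.230% to 1.09%). At SB it was 1.72%, or 12 of 696 reads (0.989% to 2.99%). At MB it was 17.3%, or 9 of 52 reads (9.38% to 29.7%). For each read of VvmiR319e there were thus 199 of VvmiR159c at YB, 57 at SB and 4.78 at MB. The share at MB lies above the intervals of both other libraries, and the intervals of SB and YB overlap in a narrow range.

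The ratio of VvmiR319e to VvmiR159c fragments was 11.9 times higher at MB than at SB, a log2 of 3.58 (95% interval 2.06 to 5.03, adjusted p = 4.41e-06 by Fisher’s exact test over the 3 pairs of libraries). It was 41.6 times higher at MB than at YB, a log2 of 5.38 (3.64 to 7.20, adjusted p = 2.29e-09 by the same exact test). Between SB and YB the ratio was 3.49 times higher at SB, a log2 of 1.80 (0.27 to 3.51, adjusted p = 0.0122 by the same exact test). The last difference was not kept with 17 nt reads only, where 5 and 4 reads of VvmiR319e gave a log2 of 1.12 (adjusted p = 0.300). It was also lost when reads with 1 different base away from position 7 were added (0.92, adjusted p = 0.131 by the same exact test). VvmiR319e then had 11 reads at YB, of which 4 differ at base 1 and cannot be assigned to it. Both differences of MB were kept in all 8 alternatives, with a log2 of 3.35 to 4.44 against SB and of 4.53 to 6.28 against YB. Of these, 2 add the same 5 reads to VvmiR319e. Some of the others could hardly have changed the result. The pseudocount leaves the tested counts as they were, and reads from 12 nt add none to VvmiR319e. Taking off the most frequent other difference from VvmiR159c removes no read at MB. The 3 pairs share libraries and are not independent of each other. The counts behind them differ most for VvmiR159c, and the numerator, VvmiR319e, is 6 to 12 reads throughout.

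**Figure D2:**
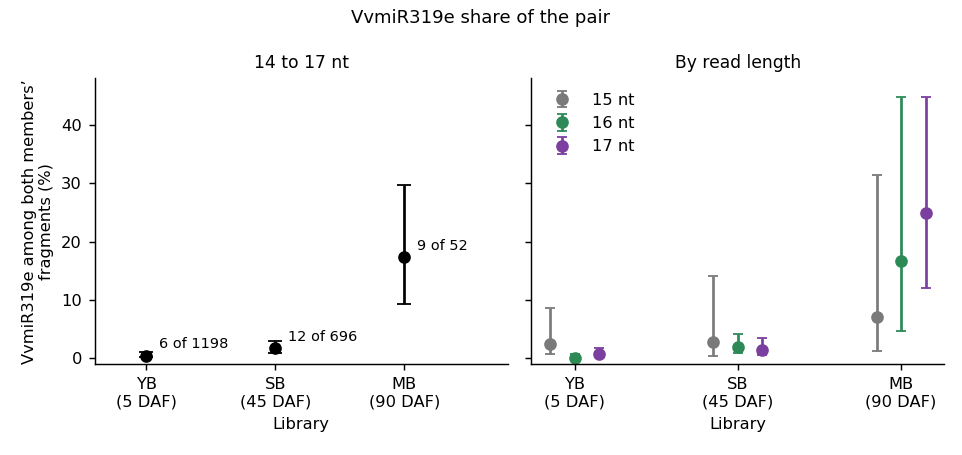
Share of VvmiR319e among the fragments of VvmiR319e and VvmiR159c, in percent, by library, for all reads of 14 to 17 nt (left, with reads of VvmiR319e and of both) and for 15, 16 and 17 nt reads (right). Bars are 95% Wilson intervals. The share was 0.501% at YB, 1.72% at SB and 17.3% at MB, and at 17 nt it was 0.701%, 1.52% and 25.0%.

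The share was also taken at each read length, which compares fragments cut at the same base. Among 17 nt reads, VvmiR319e had 4 of 571 at YB, 5 of 330 at SB and 6 of 24 at MB, or 0.701%, 1.52% and 25.0%. Among 16 nt reads, it had 0 of 523 at YB, which allows a share of up to 0.574% by the floor of 3 reads (0.729% by the Wilson interval), and 6 of 303 at SB and 2 of 12 at MB. Among 15 nt reads, it had 2 of 80 at YB, 1 of 36 at SB and 1 of 14 at MB. The share was highest at MB at each of these 3 lengths, but at 15 nt the 3 intervals overlap. The reads of VvmiR319e at MB were under the floor of 3 reads at 16 and at 15 nt. This floor corresponds there to shares of 25.0% and 21.4%, so only the 17 nt reads of MB lie above it. No 14 nt read of VvmiR319e was found beside 24 of VvmiR159c at YB, 27 at SB and 2 at MB, and a difference was not detectable at that length.

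Reads identical to VvmiR319e are also reads of VvmiR159c with T7C, and an edited or misread VvmiR159c cannot be told apart from VvmiR319e. All other single-base differences from VvmiR159c were therefore counted in the same reads, except at bases 1 and 2 and at the 3′-most base of a read. At YB, T7C had 6 reads, and the other differences had 12 reads of 9 kinds with at most 2 reads each. At SB, T7C had 12 reads, and the other differences had 9 reads of 7 kinds, again with at most 2 each. At MB, T7C had 9 reads beside 43 identical ones, and no other difference was found, which allows up to 6.98% by the floor of 3 reads (8.201% by the Wilson interval). The share of T7C was 0.501% at YB (0.230% to 1.09%), against 0.168% for the most frequent other differences (0.0459% to 0.609%), so the intervals overlap. At SB it was 1.72% (0.989% to 2.99%) against 0.292% (0.0800% to 1.06%), and these intervals overlap as well. When the number of the most frequent other difference was taken off, 4, 10 and 9 reads of VvmiR319e were left at YB, SB and MB.

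**Figure D3:**
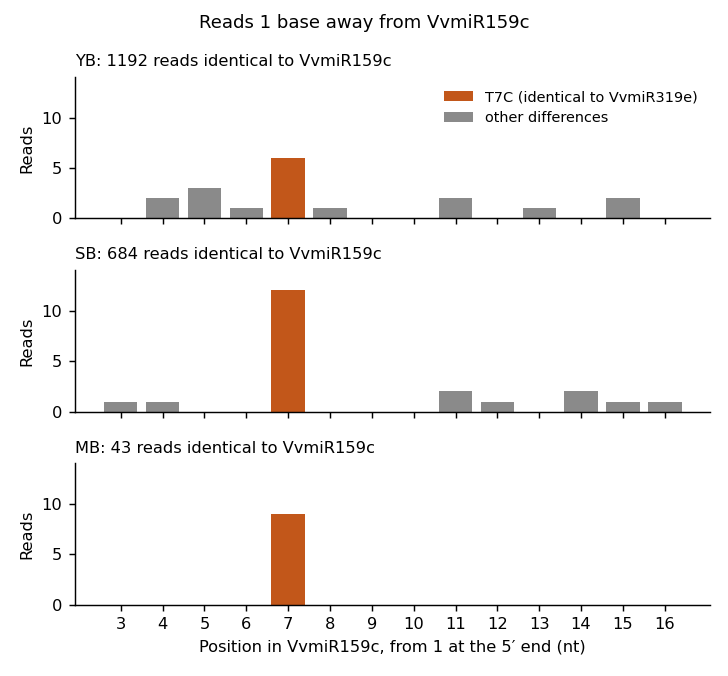
Reads of 14 to 17 nt that differ from VvmiR159c by 1 base, by position from the 5′-end (x axis, nt) and library (panels). T7C is in orange and the other differences are in grey. Differences at bases 1 and 2 and at the 3′-most base of a read are left out. T7C had 6 reads in YB, 12 in SB and 9 in MB, and no other kind shown had more than 2.

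Most fragments of VvmiR159c in YB and SB were 16 or 17 nt long, where 17 nt is the longest read deposited and longer fragments were not seen. At YB, 567 reads were 17 nt and 523 were 16 nt long, which is 47.6% and 43.9%. At SB, 325 were 17 nt and 297 were 16 nt long, or 47.5% and 43.4%. At MB, 18 were 17 nt, 10 were 16 nt and 13 were 15 nt long. The 15 nt share was 6.54% at YB, 5.12% at SB and 30.2% at MB, and that of MB was higher than both others (adjusted p = 1.34e-06 against SB and 7.10e-06 against YB, Fisher’s exact test). The lengths were known when this test was picked. Of all reads of 14 to 17 nt, 19.3% were 15 nt long at YB, 20.4% at SB and 25.0% at MB. The 15 nt share of the other listed groups together was 0.772% at YB, 1.69% at SB and 13.4% at MB, so it was highest at MB there too. The part of these differences in the result was not tested. VvmiR319e had 5 reads of 17 nt and 6 of 16 nt among its 12 at SB. It had 4 reads of 17 nt among 6 at YB and 6 among 9 at MB. In 9 planned tests of the 17 nt share, between the VvmiRNAs within a library or between libraries, no adjusted p was under 0.05 by Fisher’s exact test, and no p was under 0.05 before adjustment. Those of VvmiR319e rest on 6 to 12 reads per library, so the depth limits what they can show.

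The length profile of VvmiR159c was also compared with those of VvmiR166b–h, whose family targets mRNAs of class III homeodomain-leucine zipper factors, and VvmiR396a–d, whose family targets mRNAs of growth-regulating factors. At YB, 47.6% of VvmiR159c fragments were 17 nt long, against 92.7% for VvmiR166b–h (adjusted p = 8.18e-194, Fisher’s exact test) and 82.9% for VvmiR396a–d (adjusted p = 1.95e-09). At SB, the share was 47.5% for VvmiR159c, against 89.9% for VvmiR166b–h (adjusted p = 5.93e-69, Fisher’s exact test) and 84.8% for VvmiR396a–d (adjusted p = 1.51e-12). The 17 nt share of VvmiR159c was thus lower than that of both of these groups in these 2 libraries. At MB it was 41.9%, against 49.1% for VvmiR166b–h (adjusted p = 0.474, Fisher’s exact test) and 92.3% for VvmiR396a–d (12 of 13 reads, adjusted p = 0.00182). These tests were added with the values in view, and p-values were adjusted over the 9 added length tests. VvmiR395a–m, whose family targets mRNAs of ATP sulfurylases, had many 16 nt fragments too, with 16 of 28 at YB and 13 of 21 at SB. Its 17 nt share was 28.6% at YB and 33.3% at SB, below those of VvmiR159c, a difference that was not tested. VvmiR3623 had a lower share too, with 4 reads of 17 nt among 61 at MB (6.56%). At YB it had 0 among 3 and at SB 0 among 6, and this was not tested either. A low 17 nt share was thus not particular to VvmiR159c.

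**Figure D4:**
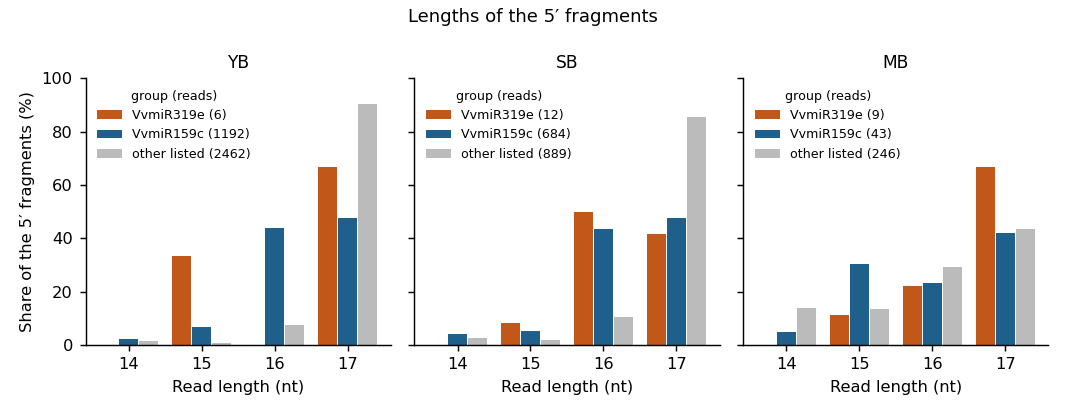
Share of 5′ fragments (y axis, percent) by read length (x axis, nt) at YB, SB and MB for VvmiR319e, VvmiR159c and all other listed groups together, with read numbers in the legends. VvmiR159c had 43.9% of its fragments at 16 nt at YB and 43.4% at SB, while the other listed groups, of which VvmiR166b–h made up 2288 of 2462 and 712 of 889 reads, had 90.6% and 85.4% at 17 nt. At MB, 41.9% of VvmiR159c and 43.5% of the other listed fragments were 17 nt long.

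Nearly all short reads from within VvmiR159c, and most of those from within VvmiR319e, began at the first base. Of the reads of 10 to 17 nt contained in VvmiR159c, 1197 of 1204 at YB (99.4%), 687 of 689 at SB (99.7%) and 43 of 43 at MB started there, and the others started at base 2. For VvmiR319e, 6 of 9 at YB, 12 of 14 at SB and 9 of 9 at MB started at base 1. The 5 reads of VvmiR319e that start at base 2 are identical to the 5′-ends of VvmiR319b, c, f and g, which begin there, and cannot be assigned. No read of 10 to 17 nt ended at the last base of either mature sequence in the 3 libraries, so T20C and A21T were not covered. Reads that held the first 14 nt of VvmiR159c behind further bases numbered 2 at YB, 1 at SB and 0 at MB.

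The 4 remaining listed members of the VvmiR319 family, VvmiR319b, c, f and g, share a mature sequence. The 3 fragments at YB and 2 at SB that match them are the same 5 reads that start at base 2 of VvmiR319e, and MB had 0. This is at or under the floor of 3 reads in each library. With these added to VvmiR319e, the log2 of the ratio was 3.35 for MB/SB. No further VvmiR159 entry is listed, so the balance of the families’ fragments rests on VvmiR319e and VvmiR159c.

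Other listed families whose targets encode transcription factors were counted for comparison: VvmiR156, VvmiR160, VvmiR164, VvmiR166, VvmiR167, VvmiR169, VvmiR171, VvmiR172, VvmiR396 and VvmiR828. They form 26 groups, of which 9 had a fragment at YB, 9 at SB and 6 at MB. VvmiR828, whose targets are MYB mRNAs in other plants, had 0 fragments in the 3 libraries, as had VvmiR160, VvmiR171 and VvmiR172. Each of these is thus under the floors of 7.54, 9.03 and 3.95 per 100000 short reads. VvmiR166 had 2290 fragments at YB, 714 at SB and 117 at MB, and VvmiR396 had 76, 99 and 13. Of the 26 groups, 9 were tested between MB and SB, and 2 of them (VvmiR166b–h and VvmiR396a–d) were called lower and 0 higher. The same groups were called lower, and 0 higher, among the 9 tested between MB and YB. The median log2 was −3.86 for MB/SB (3 groups with a ratio) and −2.41 for MB/YB (4 groups). Between SB and YB, 11 were tested, of which 0 were called higher and 1, VvmiR166b–h, lower. Over all listed groups tested, 19.4% of 31 were called lower for MB/SB, 14.7% of 34 for MB/YB and 2.70% of 37 for SB/YB. Called higher were 3.23%, 2.94% and 0%. Whether the transcription factor families differ from these shares was not tested. VvmiR159c was not alone in being called lower at MB. Levels of VvmiR164, VvmiR156, VvmiR167 and VvmiR169 were at most 4 reads in any library.

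To describe which fragments were distributed as those of the pair, the share of short reads in each library was scaled to a sum of 100% over YB, SB and MB. VvmiR319e had 23.9%, 57.3% and 18.8%, and VvmiR159c had 58.6%, 40.3% and 1.11%. The total variation distance is the percentage that would have to move between libraries to make 2 distributions equal, and it was 34.7% between VvmiR319e and VvmiR159c. Nearest to VvmiR159c among the 4 other groups with at least 30 fragments were VvmiR395a–m (6.58%), VvmiR166b–h (13.6%) and VvmiR396a–d (20.9%). VvmiR395a–m had 28 reads in YB, 21 in SB and 1 in MB. Nearest to VvmiR319e among 5 groups were VvmiR396a–d (15.4%), VvmiR395a–m (28.3%) and VvmiR159c (34.7%). With 3 libraries and 27 reads of VvmiR319e, the order for VvmiR319e is a description only.

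**Figure D5:**
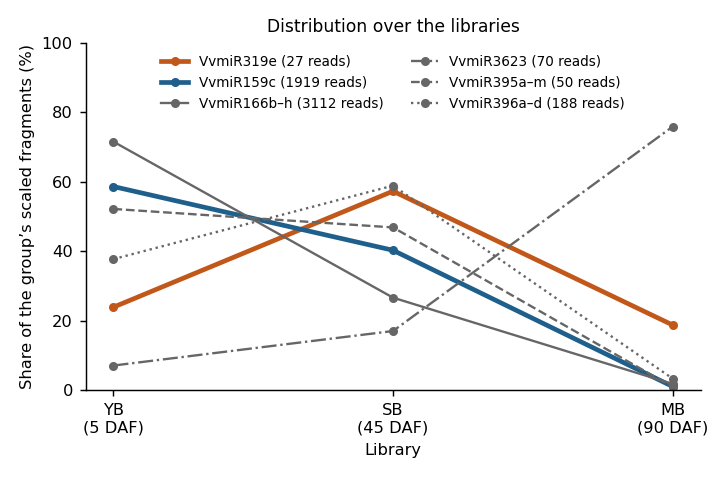
Distribution of fragments over YB, SB and MB for VvmiR319e, VvmiR159c and the groups with at least 30 fragments, as percent of the sum of each group’s shares of short reads. MB held 18.8% of VvmiR319e and 1.11% of VvmiR159c, and 75.8% of VvmiR3623.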

How the data were processed

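The authors deposited, for each library, the read counts of distinct sequences after trimming and collapsing identical reads, without normalization. The labels and the methods name different sequencing platforms, and the labels name mRNA degradome beside small RNA sequencing without assigning the counts to either. The trimming software is not given in the sources used here, and the adapters of the methods carry molecular identifiers whose use in these counts is not stated. RNA of 18 to 30 nt was cut from a gel, and clean reads of 18 nt and less were discarded, so the deposited counts are reads outside that selection and their totals are not library depths. Library totals for the 3 stages were not used here, nor were full-length read numbers.

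Mature sequences came from the supplementary list of known VvmiRNAs. For log2 ratios, a count under 3 was set to 3. No count model can be fitted with 1 library per stage. Two-sided Fisher’s exact tests were adjusted by the Benjamini-Hochberg method, and intervals of ratios are 95% conditional exact intervals of the odds ratio. Intervals cover counting error only. Alternatives changed the read lengths, the matching, the floor and the scaling (edgeR 4.0.16 TMM factors and DESeq2 1.42.0 size factors, in R 4.3.3, on distinct sequences with at least 10 reads). Sequence families share 13 nt with an abundant read. Python 3.11.15 and scipy 1.17.1 were used. The counting of fragments, the test of each group between libraries and the test of the balance were first tried on simulated data. The other steps were not. The pair, the lists and the tests were chosen with earlier results of these data known. The groups named are the listed VvmiR159 and VvmiR319 entries, the transcription factor families with at least 10 fragments in a library, and the 3 groups nearest in distribution to each VvmiRNA. Others were named after their values were seen.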

Additional observations from a re-analysis of the deposited data

Results flagged for a closer look

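Of the reads outside those counted, 3 kinds with more than 3 reads at YB were flagged. Among reads shorter than those counted, 5 of 10 to 13 nt began as VvmiR159c. Among reads of 14 to 17 nt, 7 began at base 2 of VvmiR159c. VvmiR319e with T1C, a change at its 5′-most base, had 4 reads at YB, beside 6 identical to VvmiR319e, and 0 at SB and at MB. These reads are also the 5′-end of VvmiR319b, c, f and g behind a further base, and cannot be assigned.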

How the results depend on the processing

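Of 24 alternative values of the balance, 22 kept their direction and their side of the threshold. Those with the pseudocount rest on the same tested counts as the main values. The log2 (SB/YB) of the balance was 1.12 with 17 nt reads only and 0.92 with reads of 1 different base added, both with an adjusted p above 0.05 by Fisher’s exact test. The added reads with 1 different base took VvmiR319e from 6 to 11 reads at YB and left it at 12 at SB. Of the 11, 4 had T1C and cannot be assigned to VvmiR319e. The cause at 17 nt was not tested. Of 66 values for the fragments of each VvmiRNA among short reads, 59 kept both. Scaling to the fragments of all other listed VvmiRNAs, which were 6.19% of the YB total, 2.68% of that of SB and 0.324% of that of MB, shifts each log2 by 1.21 (SB/YB), 3.05 (MB/SB) and 4.26 (MB/YB). By this shift, VvmiR159c had a log2 (SB/YB) of 0.67, and VvmiR319e had 2.47 (SB/YB), 1.44 (MB/SB) and 3.91 (MB/YB). Leaving out the 2 most abundant families shifts MB/YB by 0.95, and VvmiR319e then had 0.61. It had 0.067 for MB/YB with 16 and 17 nt reads only and −1.83 for MB/SB, now past the threshold, with reads from base 2. TMM factors shift SB/YB by −0.24, and size factors shift it by −0.44. Of 24 counts of called groups, 19 were within 1.5 times the main count. Without the log2 threshold, 1 group was higher and 2 were lower at SB than at YB. With 17 nt reads only, 0 groups were higher at MB than at SB and 0 than at YB, and 2 were higher at MB than at YB without the abundant families. With reads from 12 nt, the 17 nt share of VvmiR159c was 47.4% at YB and 47.3% at SB. No paired analysis was possible because each stage has 1 library, and for the same reason no replicate could be left out. Counts of 6 to 12 reads limit all statements on VvmiR319e.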
